A study of Mus musculus with 4 samples.

Results

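The proteasome genes of stimulated mouse CD4 T cells were taken as every gene symbol made of Psma to Psmg and a number, with an optional final a or b. This rule gave 49 of the 32285 genes counted. By role they were 8 alpha and 7 beta subunits of the core, 3 immunoproteasome subunits (Psmb8, Psmb9 and Psmb10), the thymus-type subunit Psmb11, 6 ATPases and 3 other subunits of the base, 8 lid subunits, 7 assembly chaperones, 5 activators and the inhibitor Psmf1. Splenic T cells sorted as CD3+CD4+ from C57BL6/J mice had been cultured for 6 h with beads carrying antibodies to CD3 and CD28, and were profiled by droplet single-cell RNA sequencing of transcript 3′ ends. Of the 4 libraries, 2 carried the genotype label Irf5-/- (knockout) and 2 the label WT (wild type), with 1 library per sex in each. All had been stimulated, so resting and activated cells could only be told apart by their own transcripts. The number, age and pooling of the mice were not given in the sources used here, nor was the construction of the knockout allele, and nothing said that the libraries were separate cultures, so p-values measure only the spread between these libraries.

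The proteasome is the barrel-shaped protease that degrades ubiquitin-tagged proteins. The alpha rings gate the core and the beta rings hold the active sites, which belong to Psmb5, Psmb6 and Psmb7 in the constitutive form. In the immunoproteasome, which lymphocytes express and interferon induces, Psmb8, Psmb9 and Psmb10 take the places of Psmb5, Psmb6 and Psmb7, respectively, and the peptides it makes are suited to presentation on MHC class I. The base and lid form the regulatory cap, in which the base ATPases unfold substrates and the lid removes ubiquitin. Psme1 and Psme2 form a cap without ATPase activity that interferon also induces, whereas Psme3 is a nuclear activator of the same family.

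Cells with at least 2000 unique molecular identifiers (UMIs), at least 500 genes and at most 10% mitochondrial UMIs were kept. They numbered 6178, 1814, 6543 and 4565 in the female knockout-labelled, female wild-type-labelled, male knockout-labelled and male wild-type-labelled libraries, the order used for all series of 4 values below. Total UMIs per library ranged from 28841161 to 55850754, and the median per cell from 5104.5 to 9661. Droplets under 200 UMIs, a measure of free RNA, held 36.2% of the UMIs of the female wild-type-labelled library and 8.62% to 14.7% elsewhere. Pairs of libraries shared 2 to 14 cell barcodes. Cd3e, Cd4 and Trac were present in all libraries, Cd8a had 2 to 10 UMIs per library, and 0.459% to 1.27% of the cells carried 3 or more UMIs of a B, NK, CD8, gamma-delta, myeloid or erythroid list. The targeted gene went against the labels. Irf5 was at 8.57, 0.936, 9.07 and 1.18 counts per 1000000 UMIs (CPM), higher in both libraries labelled knockout (log2 fold change 2.94, edgeR adjusted p = 6.00e-07), so the labels are used below only as names of libraries. The part of Irf5 that the knockout deletes was not given in the sources used here, and a 3′ tag outside it would not check the genotype.

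The promoters of the 3 immunoproteasome genes, which went against most other members, of Psme3, which had the highest fold change by state, and of Psme1, an interferon-inducible activator that did not follow the immunoproteasome, are shown first, from RefSeq on GRCm38.p6, the assembly that mm10 names. Each runs from 250 bases before to 20 bases after the annotated start, on the strand of the gene, 5′ to 3′. Capitals mark matches, on either strand, to 4 motifs searched in 300-base windows that end 50 bases after the start: an interferon-stimulated response element (ISRE, searched as GAAA and GAAA with any 2 bases between them), an interferon-gamma-activated sequence (GAS, TTCNNNGAA), an ETS site (CCGGAAG) and an E-box (CACGTG), to which Myc family factors bind.

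Psmb8 lies at chr17:34197945-34198214, plus strand, with a GAS match 97 to 89 bases before the start.
Psmb8: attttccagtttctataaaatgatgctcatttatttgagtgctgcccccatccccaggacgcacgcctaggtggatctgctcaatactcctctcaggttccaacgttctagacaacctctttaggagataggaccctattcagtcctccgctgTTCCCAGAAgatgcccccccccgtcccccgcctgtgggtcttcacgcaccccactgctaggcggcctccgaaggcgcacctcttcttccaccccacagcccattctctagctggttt
Psmb9 lies at chr17:34187311-34187580, minus strand, with no match in this window.
Psmb9: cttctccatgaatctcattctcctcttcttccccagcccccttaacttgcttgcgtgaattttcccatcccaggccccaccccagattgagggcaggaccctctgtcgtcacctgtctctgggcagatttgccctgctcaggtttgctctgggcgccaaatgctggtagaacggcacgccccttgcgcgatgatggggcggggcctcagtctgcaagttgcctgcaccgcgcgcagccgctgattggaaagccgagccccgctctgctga
Psmb10 lies at chr8:105938373-105938642, minus strand, with an E-box match.
Psmb10: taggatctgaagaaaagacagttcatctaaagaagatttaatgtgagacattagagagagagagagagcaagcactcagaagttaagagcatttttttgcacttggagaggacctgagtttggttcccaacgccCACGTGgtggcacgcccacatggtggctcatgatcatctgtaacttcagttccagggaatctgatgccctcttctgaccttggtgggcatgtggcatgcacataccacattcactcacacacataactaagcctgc
Psme1 lies at chr14:55578244-55578513, plus strand, with an ISRE match just after the start.
Psme1: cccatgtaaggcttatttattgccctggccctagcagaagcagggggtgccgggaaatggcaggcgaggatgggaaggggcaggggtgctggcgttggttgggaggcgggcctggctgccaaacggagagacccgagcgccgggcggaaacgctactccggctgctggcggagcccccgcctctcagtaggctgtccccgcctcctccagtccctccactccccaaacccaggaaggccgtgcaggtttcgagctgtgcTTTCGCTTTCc
Psme3 lies at chr11:101315963-101316232, plus strand, with 2 ETS matches and 1 E-box match.
Psme3: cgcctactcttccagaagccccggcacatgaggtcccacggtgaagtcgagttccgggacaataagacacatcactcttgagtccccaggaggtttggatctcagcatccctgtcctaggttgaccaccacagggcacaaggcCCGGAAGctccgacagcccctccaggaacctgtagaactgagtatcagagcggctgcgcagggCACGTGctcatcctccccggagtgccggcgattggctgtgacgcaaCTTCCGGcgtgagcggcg

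RefSeq promoters were found for 41 members outside chromosome 18, with 44 windows. The ETS motif was present in 34.1% of these windows and in 8.92% of 32534 windows of all genes. ISRE was present in 11.4% against 3.45%, GAS in 6.82% against 8.33%, and the E-box in 9.09% against 7.17%. A match is a stretch of letters, not a bound site, and a missing match says only that these letters are not in the window. In GENCODE M21, Psmb8, Psmb9 and Psme1 start further upstream, at 34197721, 34187764 and 55578123. Their whole windows thus lie inside these genes, and the sequence around the GENCODE starts was not searched. The GENCODE start of Psmb10, 105938444, lies within its window.

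All 49 members were located on GRCm38 through GENCODE M21, on 16 chromosomes. Psmb8 and Psmb9 lie close together on chromosome 17, where their GENCODE start sites are 9957 bases apart. The peptide transporter gene Tap1 lies between them, and the transporter gene Tap2 lies on the other side of Psmb8. Psmb9 and Tap1 overlap at their first exons on opposite strands, with GENCODE start sites 211 bases apart. Exons of 14 members overlap another gene. The use of strand in counting was not given in the sources used here, so how reads in such overlaps were counted is not known. Transcripts of Psme2 and its copy Psme2b were identical at 99.4% of 794 aligned bases, so the split of their counts is uncertain. Exons of Psme2b also overlap 9930111J21Rik1 on the same strand, so strand cannot separate their reads there.

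The first comparison asked how the members differed between cells that carried markers of rest and cells that carried markers of activation. After thinning every cell to 2000 UMIs, a cell with at least 3 marker UMIs was called resting-marker when at most 0.25 of them came from 14 activation genes (such as Nr4a1, Egr2 and Myc) rather than from 11 resting genes (such as Klf2, S1pr1 and Il7r), and activation-marker from 0.75. No member is on either list. There were 1276, 362, 1487 and 1048 resting-marker cells and 3832, 1190, 4085 and 2880 activation-marker cells. These classes are ranges of a score: between 122 and 403 cells per library lay within 0.1 of the lower limit and between 201 and 831 within 0.1 of the upper limit. UMIs were summed per library and class and tested over the 4 libraries in edgeR, with CPM scaled by TMM factors.

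Nearly the whole constitutive proteasome was higher in activation-marker cells, and the 3 immunoproteasome subunits were lower. Of the 47 members with enough counts, 38 rose and 5 fell at an adjusted p under 0.05, where the test called 42% of all 10602 genes higher and 42.2% lower. The median log2 fold change was 1.07 over the members and -0.02 over all genes tested. Members together made up 0.667%, 0.604%, 0.645% and 0.580% of the UMIs of resting-marker cells and 0.894%, 0.827%, 0.887% and 0.858% of those of activation-marker cells. Per cell this was 23.6 to 36.8 UMIs against 54.0 to 97.0.

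The 4 libraries of the classes did not overlap for 37 members that were higher, against 38.9% of all genes, and for 4 members that were lower, against 37.8%. Psma8 and Psmb11, known from testis and thymic epithelium, were not tested. They had 0 to 4 UMIs per library, where a count of 0 allows up to 0.0646 to 0.187 CPM.

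**Figure D1:**
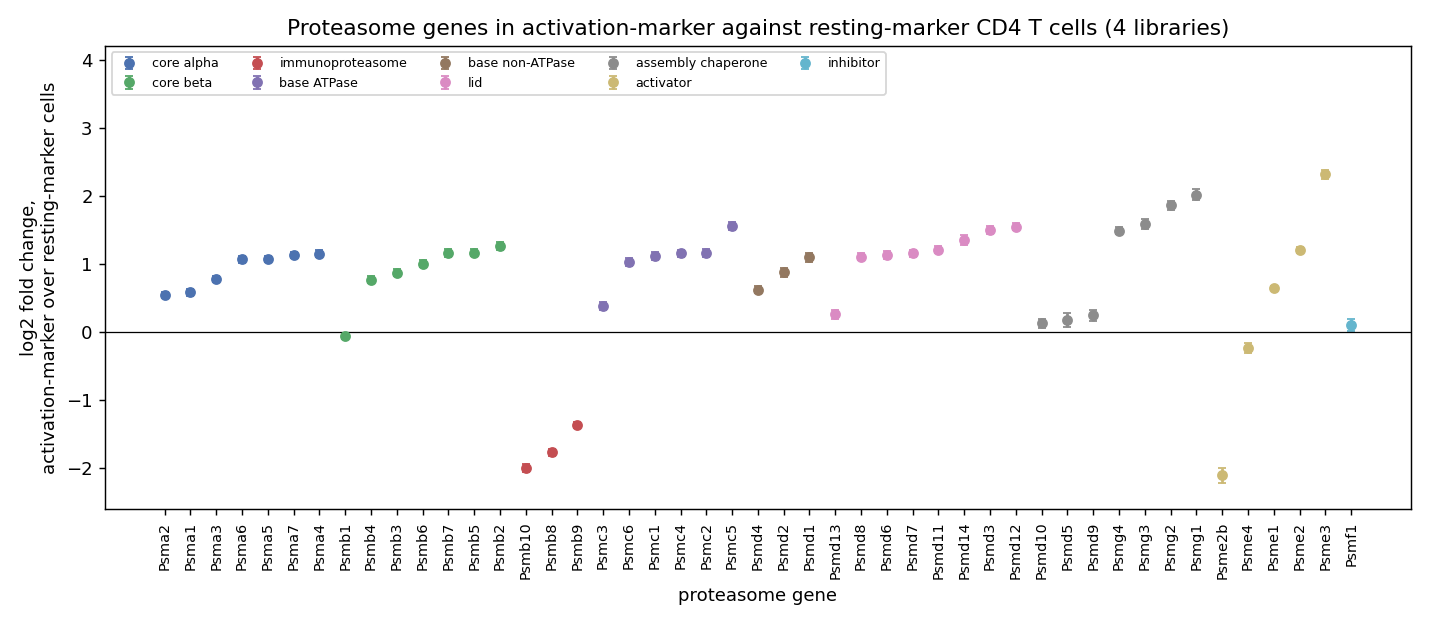
Log2 fold change of each tested proteasome gene between activation-marker and resting-marker cells (y axis), by role and then by size (x axis). Points are edgeR estimates over 4 libraries and bars are their standard errors; the 3 immunoproteasome genes lie between -1.99 and -1.37 while the lid genes lie between 0.26 and 1.55.

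Psmb8, which replaces Psmb5, was at 683, 627, 680 and 522 CPM in resting-marker cells and at 210, 161, 192 and 171 CPM in activation-marker cells. All 4 resting-marker values were above all 4 activation-marker values. The log2 fold change was -1.77 (SE 0.05, edgeR adjusted p = 2.46e-15), a level 3.40-fold lower. Per cell, without scaling, the UMIs of Psmb8 were 2.01 to 2.65 times higher in resting-marker cells, although those cells held fewer UMIs in all.

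Psmb9, which replaces Psmb6, was at 357, 329, 338 and 297 CPM in resting-marker cells and at 143, 132, 132 and 107 CPM in activation-marker cells. The classes did not overlap, and the log2 fold change was -1.37 (SE 0.05, edgeR adjusted p = 1.87e-14). Psmb10, which replaces Psmb7, was at 191, 193, 197 and 179 CPM against 51.9, 41.8, 53.1 and 43.1 CPM. It fell by 1.99 on the log2 scale (SE 0.06, edgeR adjusted p = 3.13e-15). Per cell, Psmb9 was 1.67 to 1.83 times and Psmb10 2.41 to 3.15 times higher in resting-marker cells.

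Their constitutive counterparts went the other way in every library. Psmb5 was at 116, 101, 119 and 107 CPM in resting-marker cells and at 244, 223, 261 and 260 CPM in activation-marker cells, a log2 fold change of 1.16 (SE 0.05). Psmb6 was at 120, 97.7, 111 and 99.3 CPM against 217, 197, 225 and 216 CPM, a log2 fold change of 1.00 (SE 0.05). Psmb7 was at 58.3, 58.0, 59.5 and 52.6 CPM against 128, 123, 124 and 131 CPM, a log2 fold change of 1.16 (SE 0.06). The edgeR adjusted p of these 3 genes was 1.11e-11 or lower.

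**Figure D2:**
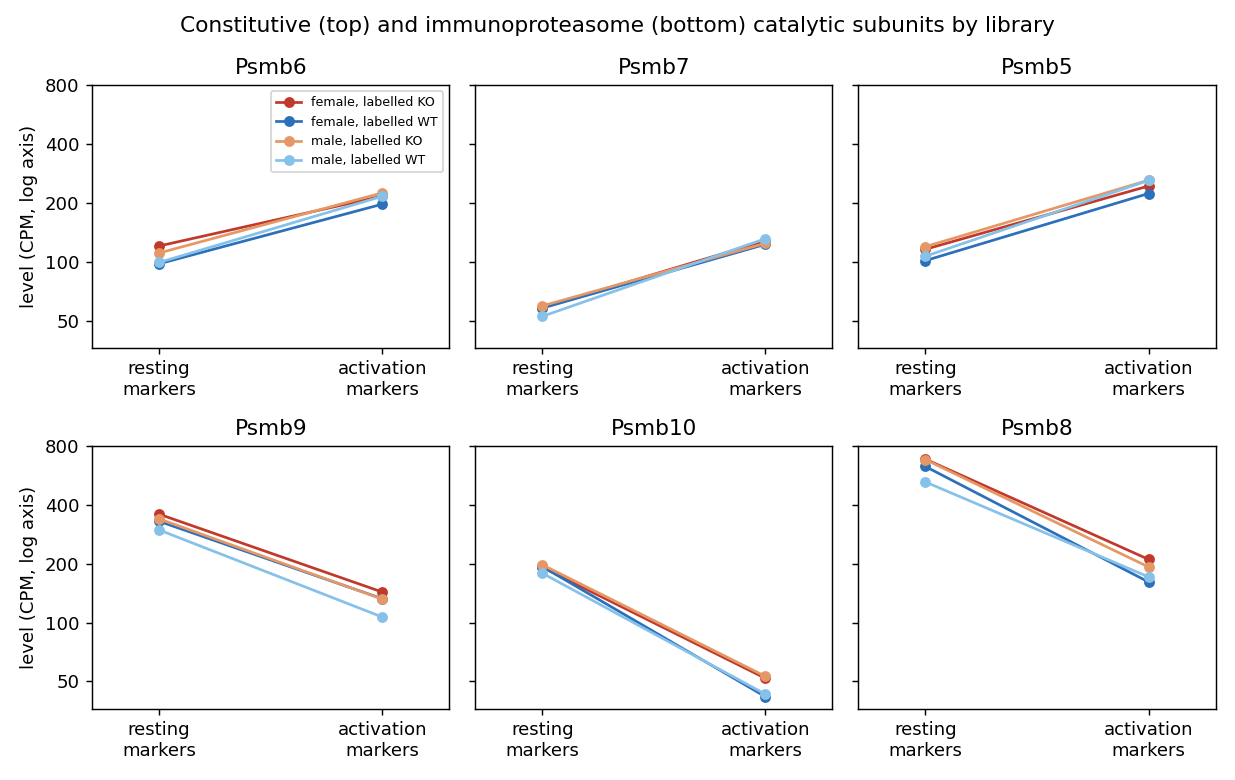
Level of each catalytic subunit in CPM (y axis, logarithmic) in resting-marker and activation-marker cells (x axis); each line is 1 of the 4 libraries. The constitutive subunits in the top row rise in every library and the immunoproteasome subunits below them fall in every library, Psmb8 from between 522 and 683 to between 161 and 210 CPM.

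The UMI share of the immunoproteasome member in each catalytic pair needs no scaling between libraries. It is a share of UMIs and not of protein or of assembled particles, so only its difference between classes is read. Psmb8 held 85.5%, 86.1%, 85.1% and 83.0% of the UMIs of Psmb8 and Psmb5 in resting-marker cells and 46.3%, 41.9%, 42.4% and 39.7% in activation-marker cells. The mean fell from 84.9% ± 1.32 to 42.6% ± 2.75 (SD, n = 4).

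Psmb9 held 75.5% ± 1.06 of the UMIs of Psmb9 and Psmb6 in resting-marker cells and 37.5% ± 3.29 in activation-marker cells (SD, n = 4). For Psmb10 with Psmb7 the share was 76.9% ± 0.255 against 27.2% ± 2.57 (SD, n = 4), the widest gap of the 3. In every pair the share was lower in activation-marker cells in 4 of 4 libraries, and the two-sided exact permutation p was 0.13, the smallest that 4 libraries allow. The exact 95% binomial intervals of single shares, which cover counting error only, were widest for Psmb10 in the female wild-type-labelled library, from 73.2% to 80.4% in its resting-marker cells.

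The other core subunits rose with their groups. All 7 alpha subunits tested rose, from Psma2 at a log2 fold change of 0.54 (240 to 266 CPM in resting-marker and 354 to 383 CPM in activation-marker cells) to Psma4 at 1.15 (122 to 124 CPM against 269 to 277 CPM). Of the 7 constitutive beta subunits 6 rose, led by Psmb2, a structural subunit, at 1.26. The exception was Psmb1, also structural, at 237, 257, 248 and 266 CPM against 234, 237, 241 and 255 CPM, a log2 fold change of -0.06 (SE 0.04, edgeR adjusted p = 0.224). The level of Psmb1 thus overlapped between the classes, while its UMIs per cell were 1.36 to 1.497 times higher in activation-marker cells. Psmb1 was called lower without TMM factors (-0.26), among cells of similar depth (-0.18) and among cells with 6 to 12 UMIs of an interferon list (-0.22), both restrictions chosen after the data were seen, and higher without a filter on low counts (0.12).

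In the regulatory cap all 6 ATPases, all 3 other base subunits and all 8 lid subunits rose. Among the ATPases Psmc5 rose most, from 62.7, 64.4, 73.5 and 65.7 CPM to 193, 178, 203 and 207 CPM (log2 fold change 1.56, SE 0.06), and Psmc3 least (0.38, SE 0.06). The base scaffold subunit Psmd1 had a log2 fold change of 1.10 and the ubiquitin receptor Psmd4 of 0.62. Psmd12 led the lid, at 72.6, 64.4, 73.7 and 68.3 CPM against 199, 196, 207 and 215 CPM (log2 fold change 1.55, SE 0.05). Psmd14, the lid enzyme that cuts ubiquitin chains from substrates, had a log2 fold change of 1.35 (SE 0.07). Psmd13 was the lid gene with the lowest value, 0.26 (SE 0.06, edgeR adjusted p = 0.001), and its libraries overlapped between the classes. Psmc3 and Psmd13 lost their calls among cells of similar depth, at edgeR adjusted p of 0.0539 and 0.282, and among cells of similar interferon signature, at 0.230 and 0.790; Psmd13 also lost it without TMM factors (0.411).

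The assembly chaperones split by the stage of assembly they are known for. Psmg1, Psmg2, Psmg3 and Psmg4, which build the alpha ring of the core, had log2 fold changes of 2.01, 1.86, 1.58 and 1.49. Psmg1 was at 13.1, 11.9, 15.01 and 16.9 CPM in resting-marker cells and at 59.1, 53.0, 57.2 and 64.6 CPM in activation-marker cells. Psmd5, Psmd9 and Psmd10, which help to build the base, had log2 fold changes of 0.17, 0.25 and 0.12, and of these Psmd9 passed the test (edgeR adjusted p = 0.010). Without the male knockout-labelled or the male wild-type-labelled library Psmd9 lost its call (adjusted p = 0.0753 and 0.0618), whereas Psmd10 was called without the female wild-type-labelled library (log2 fold change 0.19, adjusted p = 0.0254) and Psmd5 without the male wild-type-labelled one (0.28, adjusted p = 0.0260). Psmd9 also lost its call without TMM factors and in classes set at 5 or more marker UMIs with limits of 0.1 and 0.9. It lost its call among cells of similar depth (0.15) as well and turned to -0.13 among cells of similar interferon signature. In all, the call of Psmd9 was not kept in 6 of 16 alternatives. The values of these 2 sets of chaperones were not tested against each other.

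Among the activators, Psme3 had the highest fold change of all members. It was at 32.7, 34.2, 29.9 and 30.5 CPM in resting-marker cells and at 150, 169, 151 and 160 CPM in activation-marker cells, a log2 fold change of 2.31 (SE 0.06, edgeR adjusted p = 8.12e-16). The interferon-inducible pair did not follow the immunoproteasome: Psme1 rose from between 603 and 665 CPM to between 947 and 1041 CPM (log2 fold change 0.64, SE 0.04), and Psme2 from between 413 and 441 CPM to between 924 and 1096 CPM (1.21, SE 0.05). Psme2b fell by 2.11 on the log2 scale, from between 32.1 and 38.1 CPM to between 7.11 and 9.41 CPM. Its counts are uncertain beside Psme2 and the overlapping gene 9930111J21Rik1. Psme4, a large activator of another family, fell by 0.24 (edgeR adjusted p = 0.005), with libraries that overlapped; without the male knockout-labelled library the adjusted p was 0.0639, and without a filter on low counts the log2 fold change was -0.060 (adjusted p = 0.567). The inhibitor Psmf1 was at 19.97 to 26.5 CPM against 23.3 to 26.6 CPM (log2 fold change 0.10, edgeR adjusted p = 0.259).

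Other genes of the pathway, from a list of 24 genes in the files that the naming rule does not reach, rose in 21 cases and fell in 3. The same test called 42% of all genes higher and 42.2% lower. Pomp, the maturation factor of the core, had a log2 fold change of 1.47, the deubiquitinase Usp14 of 1.54, the ubiquitin receptor Adrm1 of 1.32 and Nfe2l1, the transcription factor that drives proteasome genes when the proteasome is inhibited, of 1.49. Nfe2l2, the related factor of the oxidative stress response, fell by 1.07, Ngly1, the glycanase that processes Nfe2l1, fell by 1.52, and the shuttle factor Ubqln2 fell by 0.62. Of 8 genes of antigen presentation and its control, 7 fell, against 42.2% of all genes. Among the 7 were Tap1 (-0.55), B2m (-0.55) and Irf1 (-0.95), while Erap1, which trims peptides, rose by 1.22.

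Along 6 bins of the activation share the summed level of the immunoproteasome was 0.96, 0.59, 0.37, 0.28 and 0.27 of its level in the lowest bin (means of the 4 libraries). The lid was at 1.10, 1.69, 1.91, 2.03 and 2.05 times, and the core alpha subunits at 1.10, 1.56, 1.71, 1.70 and 1.66 times. Most of the difference thus lay between activation shares of 0.1 and 0.75. The bins held 84 to 3115 cells per library.

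**Figure D3:**
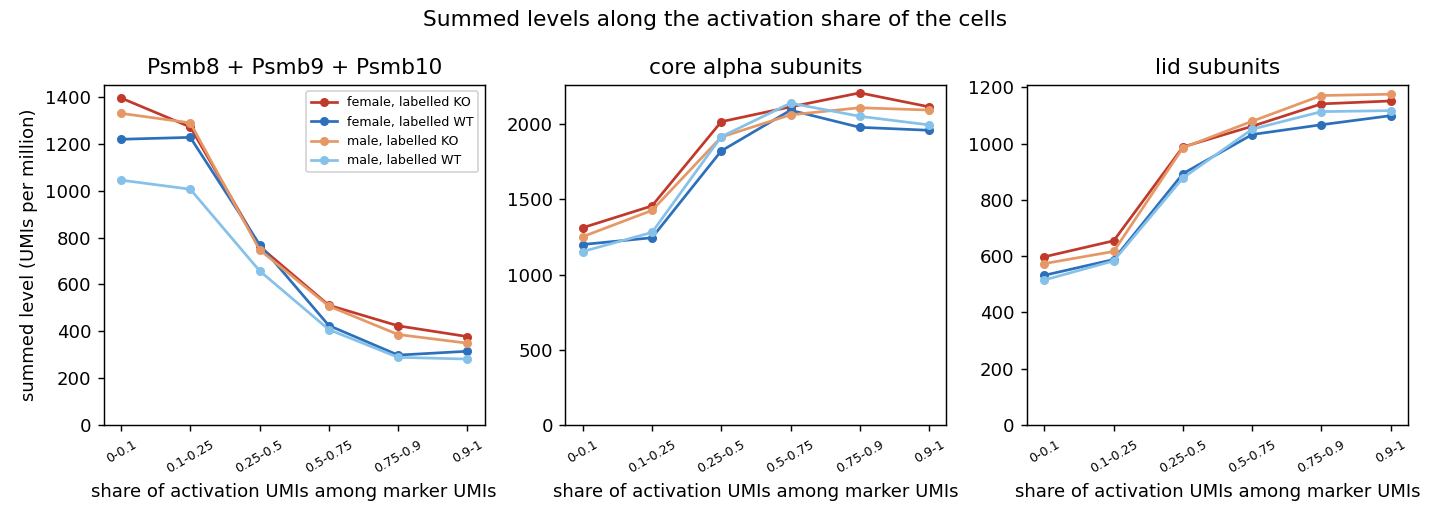
Summed CPM of the immunoproteasome, core alpha and lid genes (y axes) in 6 bins of the share of activation UMIs among a cell's marker UMIs (x axis); each line is 1 library. In the lowest bin the immunoproteasome genes sum to between 1045 and 1396 and in the highest to between 282 and 378.

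The classes differed in more than their state. Median UMIs per cell were 3256 to 6086 in resting-marker cells and 5687 to 10822 in activation-marker cells, and the median mitochondrial share was 4.58% to 4.89% against 3.54% to 3.61%. The summed regulatory T cell list was at 220 to 371 CPM against 452 to 586, and the gamma-delta list at 14.2 to 30.8 against 2.74 to 6.51. The interferon list, 30 genes without any member, averaged 18.2, 17.0, 15.6 and 12.5 UMIs per thinned cell in resting-marker cells and 4.30, 3.80, 3.45 and 2.44 in activation-marker cells. The part of the mitochondrial share and of free RNA in the fold changes was not tested. Without the cells that, after thinning, carried 3 or more UMIs of another lineage's list, gamma-delta included, Psmb8, Psmb9 and Psmb10 fell by 1.77, 1.39 and 2.00 on the log2 scale. Without cells with a Foxp3, Ikzf2 or Gpr83 UMI, 3 genes of the regulatory T cell list, they fell by 1.88, 1.47 and 2.13. In both settings 38 members rose and 5 fell. Of all genes, 4457 rose and 4469 fell among 10583 in the first setting, and 4372 rose and 4375 fell among 10347 in the second. The second of these settings and those for depth and the interferon list that follow were chosen after the data were seen.

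In cells of similar depth in both classes, Psmb8, Psmb9 and Psmb10 fell by 1.17, 0.51 and 0.98 on the log2 scale. The activation-marker cells kept in this setting differed from their whole class in more than depth. Their interferon list averaged 7.99, 7.55, 5.84 and 4.74 UMIs, against 4.30, 3.80, 3.45 and 2.44 in the whole class. Their activation list averaged 21.92 to 25.39 UMIs, against 14.68 to 16.56. The part of depth alone in the smaller fold changes was not tested. In cells with 6 to 12 interferon UMIs the log2 fold changes of Psmb8, Psmb9 and Psmb10 were -1.02, -0.29 and -0.88. The edgeR adjusted p of Psmb9 was 5.92e-04. Among these cells Psmb9 was at 321, 292, 327 and 317 CPM in resting-marker cells and at 259, 272, 248 and 261 CPM in activation-marker cells, so its classes still did not overlap. The interferon list still averaged 9.45, 9.51, 9.46 and 9.26 UMIs in these resting-marker cells and 8.16, 8.01, 8.15 and 8.03 in the activation-marker cells. Median UMIs per cell were 3432, 5718.5, 4560 and 6122 against 4913, 7689, 6310 and 8681. The part of these remaining differences was not tested. Psmb5, Psmb6 and Psmb7 rose by 0.77, 0.61 and 0.88, and Psme3 by 1.87. Of the 47 members 35 rose and 6 fell in that comparison, where 33.8% and 35.7% of all genes did. The shares of Psmb8, Psmb9 and Psmb10 in their pairs were 24.4, 13.2 and 27.1 percentage points lower in activation-marker cells, against 42.3, 38.1 and 49.7 points over all cells of the classes.

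The next comparison asked which members differed with the interferon list within a class. Within activation-marker cells, 261 to 847 cells per library had 0 interferon UMIs at 2000 UMIs and 516 to 1845 had 3 or more. The 3 immunoproteasome subunits were higher in the cells with interferon UMIs, and most constitutive members were slightly lower. Psmb9 was at 56.9, 57.9, 53.1 and 44.8 CPM in cells without and at 202, 202, 195 and 184 CPM in cells with the signature, a log2 fold change of 1.91 (SE 0.05, edgeR adjusted p = 1.71e-25). Psmb10 was at 24.8, 18.3, 22.3 and 22.8 CPM against 75.2, 66.3, 78.8 and 71.3 CPM (1.71, SE 0.07). Psmb8 was at 112, 94.8, 109 and 109 CPM against 279, 213, 258 and 235 CPM (1.21, SE 0.04). In each of these 3 genes the 4 libraries of the groups did not overlap.

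Psme1 and Psme2 rose by 0.06 and 0.11 in this split, and Psme2b by 0.93. Psmb5, Psmb6 and Psmb7 fell by 0.25, 0.22 and 0.24, and Psme3 fell by 0.38. In all, 6 of the 47 members rose and 31 fell, where the test called 26.8% of all genes higher and 26% lower. Among presentation genes Tap1 had a log2 fold change of 1.69 and B2m of 0.95. The activation list averaged 11.7 to 12.1 UMIs in cells without and 18.0 to 20.7 UMIs in cells with the signature, while median UMIs per cell were 6262, 10064, 8279.5 and 11648 in cells without and 5139, 8192, 6855 and 9378 in cells with it. The part of the activation list and of depth in these differences was not tested.

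Within resting-marker cells the comparison had been set between cells with 0 and with at least 3 interferon UMIs. Only 9, 2, 4 and 7 cells had 0, so its fold changes (2.36, 3.43 and 2.65 for Psmb8, Psmb9 and Psmb10) rest on few cells. It called 4 members higher and 9 lower, where 13.4% and 7.4% of all genes were. The 25% of resting-marker cells with the most and the 25% with the fewest interferon UMIs were compared instead, a split chosen after the data were seen. Psmb8, Psmb9 and Psmb10 rose by 0.70, 0.79 and 0.86 on the log2 scale, Psme2b by 0.91 and Psme1 by 0.15. Psme3 fell by 0.90 and Psmb5 by 0.43. Median UMIs per cell were 3538, 5829, 4826 and 6322.5 in the cells with the fewest and 3021, 5262, 4007 and 5732 in those with the most, and the part of depth was not tested. Of the 47 members 5 rose and 24 fell, where 13.6% and 14.7% of all genes did.

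**Figure D4:**
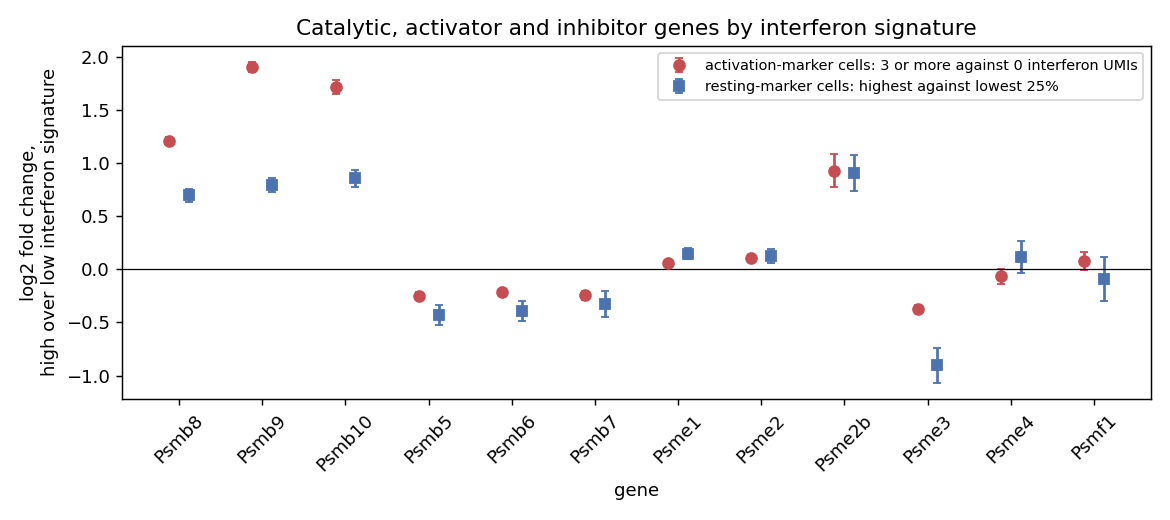
Log2 fold change between cells high and low for the interferon list (y axis) for catalytic, activator and inhibitor genes (x axis). Circles compare activation-marker cells, squares the highest and lowest 25% of resting-marker cells, and bars are standard errors over 4 libraries; Psmb8, Psmb9 and Psmb10 are at 0.70 or above in both.

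The genes with the highest correlation to Psmb9 over the 8 sums of library and class, after removal of each library's mean, were Tmem106b, Rere, Zyg11b, Mau2 and Pdk1, each with a Pearson r of 1.000. With the library means removed these sums amount to 4 differences between the same classes. Any gene that falls by a similar amount in each library thus has an r near 1.000. The log2 fold changes of the named genes ran from -0.90 to -2.94, so the ranking shows no closer likeness to Psmb9 than a shared fall in 4 libraries.

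The third comparison set the libraries labelled knockout against those labelled wild type over all passing cells, with sex as a term. No member was called: 0 of 47 at an adjusted p under 0.05 in edgeR and 0 by DESeq2, where edgeR called 1.21% of 12855 genes. In edgeR 2 members had an unadjusted p under 0.05, as did 1029 of the 12855 genes. The member with the largest log2 fold change was Psmb8, at 299, 246, 282 and 234 CPM, 0.28 higher in the knockout-labelled libraries (SE 0.08, edgeR adjusted p = 0.209). Both knockout-labelled libraries were above both wild-type-labelled libraries. Psmb9 was at 175, 162, 161 and 135 CPM (0.19, SE 0.09, adjusted p = 0.631), with overlap between labels, and Psmb10 at 77.7, 71.5, 79.6 and 67.1 CPM (0.18, SE 0.08, adjusted p = 0.588), without overlap.

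Libraries of the labels lay apart for 4 members that were higher in the knockout-labelled ones (Psmb6, Psmb8, Psmb10 and Psmd9), against 18.4% of all genes, and for 4 that were lower (Psmd11, Psme3, Psmf1 and Psmg4), against 17.3%. Both shares of members are below those of all genes. On simulated data the label test found 46.0% of log2 changes of 0.5 and 78.4% of changes of 1, with 2 libraries against 2. These are averages over genes drawn from all levels, and no change as small as that of Psmb8 was simulated. Whether a difference of that size could be detected in Psmb8 is therefore not known.

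**Figure D5:**
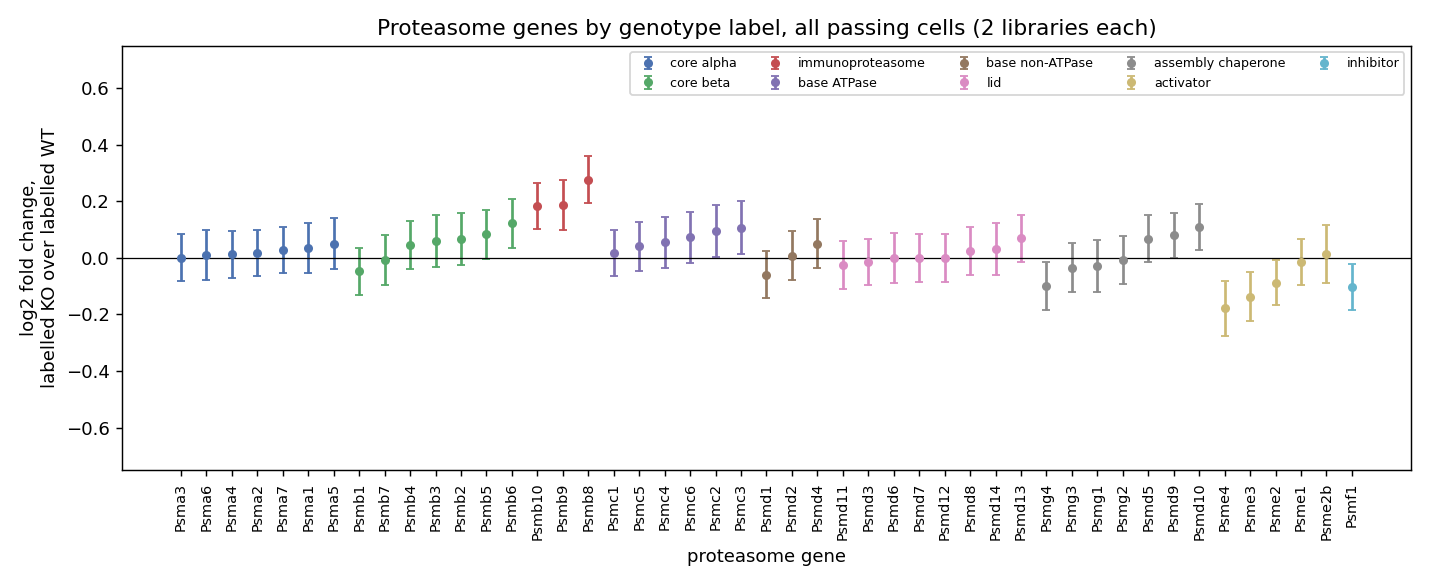
Log2 fold change of each tested proteasome gene between libraries labelled knockout and wild type (y axis), by role (x axis). Points are edgeR estimates from 2 libraries against 2 and bars are standard errors; all points lie between -0.18 and 0.28 and none was called.

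Within activation-marker cells Psmb8, Psmb9 and Psmb10 were 0.27, 0.21 and 0.30 higher in the knockout-labelled libraries on the log2 scale (edgeR adjusted p = 0.172, 0.418 and 0.132), and within resting-marker cells 0.25, 0.16 and 0.07 higher (0.492, 0.968 and 0.999). The mean interferon list in both classes was highest in the female knockout-labelled and lowest in the male wild-type-labelled library. Regulatory T cell markers also moved with the labels: Foxp3 was at 23.2, 7.55, 24.2 and 12.5 CPM over all cells. The summed list of 5 such markers was at 371, 224, 336 and 220 CPM in resting-marker and 586, 533, 536 and 452 CPM in activation-marker cells, higher in both knockout-labelled libraries. The part of the interferon list and of these markers in the values by label was not tested. The UMI share of Psmb10 with Psmb7 in activation-marker cells was 28.9% and 29.9% in the knockout-labelled and 25.4% and 24.7% in the wild-type-labelled libraries, with an exact permutation p of 0.33, the smallest that 2 against 2 allows.

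Whether the state difference itself differed between the labels was tested as an interaction. It was called for 0 of 47 members in edgeR and 0 by DESeq2. In edgeR 4 members (Psmb10, Psmd5, Psmd14 and Psme2b) had an unadjusted p under 0.05, with adjusted p between 0.553 and 0.674. Among all 10602 genes tested, 732 had an unadjusted edgeR p under 0.05. Of all genes 0.104% were called. The drop of Psmb10 from resting-marker to activation-marker cells was 1.88 and 1.89 on the log2 scale in the knockout-labelled and 2.21 and 2.05 in the wild-type-labelled libraries.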

How the data were processed

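Per the labels' protocols, cells were loaded with the 10x single-cell 3′ v3.1 chemistry. The authors deposited, for each of the 4 libraries, UMI counts per gene and barcode for all barcodes, without normalization. The submitters' processing notes name Cell Ranger 6.0.2 and mm10, whereas the file headers name Cell Ranger 4; the annotation and the use of strand are not given in the sources used here.

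Members and gene lists were chosen with earlier results of these data known. Genes named with values are the catalytic pairs, activators and inhibitor, the highest and lowest of each other role, and members called by label or interaction; others, such as Psmd14 and the remaining Psmg genes, were added after their values were seen. Counts were summed per library and class in Python 3.11.15 with numpy 2.4.6 and pandas 2.3.3, and tested in R 4.3.3 with edgeR 4.0.16 (TMM, filterByExpr, quasi-likelihood, Benjamini-Hochberg over all genes tested, library as a term for state); DESeq2 1.42.0 was an alternative. CPM carry TMM factors; those of bins, marker lists and Irf5 do not. On simulated data the state test found 71.4% of log2 changes of 0.5 and 95.5% of changes of 1. Scrublet (scanpy 1.11.5) marked 0.0486% of cells in 1 library, so it had not worked there and doublets were kept; an alternative removed the highest scores at 0.8% per 1000 cells. Shares have exact 95% binomial intervals. Permutation tests used scipy 1.17.1.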

Additional observations from a re-analysis of the deposited data

Results flagged for a closer look

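Psmd5, a chaperone of base assembly, moved in opposite directions between classes under the 2 labels. Its log2 ratio of activation-marker over resting-marker cells was 0.56 and 0.22 in the female and male knockout-labelled libraries and -0.10 and -0.06 in the wild-type-labelled ones, a difference of means of 0.4695. The flag itself is not a test of the difference; the interaction gave 0.44 (SE 0.18, edgeR adjusted p = 0.613). The level was low, between 18.0 and 26.5 CPM.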

How the results depend on the processing

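Under 16 alternatives of the state comparison the number of members that rose stayed between 35 and 42 and the number that fell between 4 and 6. Of all genes, 2926 to 5372 rose and 3085 to 5178 fell, of 8647 to 18416 tested. The 42 came without a filter on low counts, where 49 members were tested and 5372 of 18416 genes rose. Leaving out each library in turn gave 37 to 39 members that rose and 4 to 5 that fell, where 4241 to 4608 genes rose and 4247 to 4574 fell. The log2 fold changes of Psmb8, Psmb9, Psmb10, their counterparts, Psme1, Psme2 and Psme3 kept direction and call in each alternative. DESeq2 called the same 38 and 5, where it called 4236 of 10602 genes higher and 4147 lower. Scaling by library size alone moved the median of all genes from -0.02 to -0.22, and no filter on low counts moved it to 0.12. Library size alone turned Psmf1 to -0.10, Psmd10 to -0.078 and Psmd5 to -0.031. Psmb1 became 0.12 without a filter on low counts, Psmf1 -0.13 and Psmd5 -0.14 in classes of similar depth, and Psmd9 -0.13 and Psmd5 -0.17 at 6 to 12 interferon UMIs; the cause was not tested. The change in the shares of Psmb9, Psmb10 and Psmb8 was -19.9, -30.2 and -28.3 points in classes of similar depth and -13.2, -27.1 and -24.4 points at 6 to 12 interferon UMIs, each with an exact permutation p of 0.13. In the resting-marker interferon split as first set, 4 members rose and 9 fell, and 524 of 7080 genes fell. DESeq2 called 2 members lower, library size alone 22, no filter 3, and leaving out each library 2 to 4. Of all genes, DESeq2 called 357 of 7080 lower, library size alone 793 of 7080 and no filter 357 of 16008. Leaving out each library gave 255 to 397 genes lower, of 7082 to 8602. Library size alone moved the median log2 fold change of all genes in this split from 0.48 to 0.12. In activation-marker cells 31 members fell and between the highest and lowest 25% of resting-marker cells 24, against 26% and 14.7% of all genes. The split by all UMIs gave no value, since no cell had 0 interferon UMIs. For the labels, 0 members were called under each of 8 alternatives, where 5 to 130 of all genes were called higher and 2 to 75 lower. Leaving out a library leaves no residual degrees of freedom beside sex, so those values (Psmb8 0.27 to 0.29) have no test. The sex term sets libraries of the same sex beside each other; without it edgeR called 5 genes higher and 2 lower by label in place of 104 and 51, and again 0 members. The 2 libraries per label and the low counts of Psmd5, Psmf1 and Psme2b limit precision.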
